A study of Mus musculus with 18 samples.

Results

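The 8 Gimap genes and the Tmem176a and Tmem176b genes beside them on mouse chromosome 6 were followed in 18 RNA-seq libraries of E2-10HA, a mouse hybridoma line described as mature T cells. The 10 genes were chosen by name, from earlier results of the same rescue libraries in which they moved with RBPJ, and they are 10 of the 24391 genes in the deposited tables. For the rescue, RBPJ-depleted cells carried a retroviral pMY-Bio plasmid under blasticidin selection, and 4 libraries were made per group. The plasmid encoded Flag-tagged mouse RBPJ with the substitutions F261A/A284V, Flag-tagged RBPJ WT, or no insert (empty vector). In the knockdown experiment, E2-10HA cells under puromycin selection carried pLKO.1 with 1 hairpin against L3MBTL3 (shRNA) or with a scramble hairpin, and 3 libraries were made per group. The rescue cells share the RBPJ depletion, including the empty vector controls, whereas the knockdown cells kept their own Rbpj. Only 1 hairpin, 1 RBPJ-depleted cell population as far as the labels tell, and RBPJ driven from a viral plasmid were available. The labels do not say that replicates were separate cultures, and each p-value therefore reflects the variation among these libraries alone, part of which may be technical.

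GIMAP proteins are small GTPases of lymphocytes that sit on internal membranes, and several are needed for the survival of resting T cells. Gimap5 loss in rats and mice leads to a lack of T cells, and Gimap1 is required by mature lymphocytes in mice. TMEM176A and TMEM176B are 4-pass membrane proteins related to the MS4A family, known from dendritic cells and from T cells that express RORgt. RBPJ binds DNA and, with Notch, switches target genes on; with corepressors it holds them down, and L3MBTL3 is one partner described for it. Both substitutions of the F261A/A284V form lie in the part of RBPJ that contacts Notch and corepressors.

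In order along the chromosome the genes are Gimap8, Gimap9, Gimap4, Gimap6, Gimap7, Gimap1, Gimap5, Gimap3, Tmem176b and Tmem176a, and Gimap6, Gimap3 and Tmem176b lie on the minus strand. Tmem176a and Tmem176b lie head to head, and their promoter windows in RefSeq share up to 219 bases. From the starts listed there each gene runs away from the other. How the counting treated strand is not stated, and whether reads of this pair were split uncertainly was not tested. RefSeq holds 14 promoter windows for the 10 genes (GRCm38.p6, 250 bases before to 50 after each start). The core motif that RBPJ is known to bind, TGGGAA, was searched on both strands in them. It occurred in 2 of the 14 windows, against 25.6% of 32851 mouse promoter windows, and the longer GTGGGAA, which contains it, in 1 of 14 against 6.38%. A window without these letters says nothing of RBPJ binding elsewhere in the locus, and which starts these cells use was not measured. Shown are the windows of the genes with the largest and the smallest rescue difference among the Gimap genes (Gimap8, its first window, and Gimap9) and both windows with a match, with the motif in capitals, all 5′ to 3′ on the gene's strand. In both matching windows the motif is on the opposite strand and therefore reads TTCCCA, and the Gimap3 match is the longer form.
Gimap8, chr6:48646984-48647283, plus strand: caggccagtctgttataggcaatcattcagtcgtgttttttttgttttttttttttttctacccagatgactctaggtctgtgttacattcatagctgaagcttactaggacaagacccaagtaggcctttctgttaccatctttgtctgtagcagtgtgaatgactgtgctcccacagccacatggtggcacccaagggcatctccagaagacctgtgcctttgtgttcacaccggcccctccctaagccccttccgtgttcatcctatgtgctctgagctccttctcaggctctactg
Gimap9, chr6:48675885-48676184, plus strand: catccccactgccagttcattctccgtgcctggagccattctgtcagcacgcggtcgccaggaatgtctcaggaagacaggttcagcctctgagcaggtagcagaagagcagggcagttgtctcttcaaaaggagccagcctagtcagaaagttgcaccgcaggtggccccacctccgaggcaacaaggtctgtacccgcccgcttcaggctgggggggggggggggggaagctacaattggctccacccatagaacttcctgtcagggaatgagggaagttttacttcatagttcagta
Gimap3, chr6:48770802-48771101, minus strand: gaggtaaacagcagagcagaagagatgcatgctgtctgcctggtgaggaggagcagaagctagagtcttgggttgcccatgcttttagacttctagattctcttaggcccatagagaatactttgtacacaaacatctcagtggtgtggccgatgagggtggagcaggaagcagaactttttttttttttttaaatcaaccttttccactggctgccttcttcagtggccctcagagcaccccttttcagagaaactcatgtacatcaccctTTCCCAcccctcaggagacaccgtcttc
Tmem176a, second window, chr6:48841406-48841705, plus strand: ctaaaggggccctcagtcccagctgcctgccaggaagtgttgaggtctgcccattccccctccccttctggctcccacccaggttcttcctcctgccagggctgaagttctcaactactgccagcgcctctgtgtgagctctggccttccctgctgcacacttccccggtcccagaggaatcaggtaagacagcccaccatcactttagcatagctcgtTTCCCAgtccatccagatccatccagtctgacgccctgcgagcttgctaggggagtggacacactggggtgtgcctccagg

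Library depth, as reads recovered from the deposited normalized counts, was 3553505 to 7921533 in the rescue and 4882485 to 6129134 in the knockdown. In the rescue, replicates 1 and 2 stood apart from replicates 3 and 4 in every group, and pairs of near-identical libraries were averaged, which leaves 3 samples per group. Rescue means ± SD are over these samples. They weigh replicates 1 and 2 more in F261A/A284V, and replicates 3 and 4 more in RBPJ WT and empty vector. Such means of F261A/A284V therefore differ from the others partly through the sides, which the fits take as a term. In the knockdown, replicate 3 of both groups stood apart. Rbpj, which checks the rescue labels only for RBPJ against empty vector, had normalized values of 728.9, 685.5, 922.4 and 918.7 in F261A/A284V libraries, 643.6, 626.7, 802.5 and 818.1 in RBPJ WT libraries, and 317.3, 316.5, 254.6 and 272 in empty vector libraries. Counts per gene do not separate the F261A/A284V form from RBPJ WT, and these groups overlapped, so their labels were not checked against each other. L3mbtl3 had 394.1, 370.9 and 369.6 in the libraries labelled L3MBTL3 shRNA and 466.9, 447.5 and 351.5 in scramble libraries. Scramble replicate 3 lay below all libraries labelled shRNA, which goes against its label, so every direction of the knockdown is that of the labels. The summed T cell markers were at 4400 to 6210 normalized counts in all 18 libraries, with 10 of 11 markers past the filter on low values. Sums of B cell, NK cell and stromal markers did not exceed 7.61. Fewer cells of a type and less RNA per cell cannot be told apart in such bulk samples.

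The rescue values of the 10 genes chose them and are given as a description, with no test. Every Gimap gene was lower in RBPJ WT libraries than in empty vector libraries, whereas F261A/A284V libraries overlapped empty vector libraries for 6 of the 8 Gimap genes and lay above them for Gimap4 and Gimap8. Over the 4 libraries per group, RBPJ WT minus empty vector had a median log2 fold change of -3.56 across the 10 genes, against -0.008 across the 11691 genes tested. With F261A/A284V in place of RBPJ WT, the median against empty vector was 0.05, where all tested genes had 0.008, and single genes lay between -0.71 and 0.82. All fold changes are on the scale of log2(normalized value + 1), which understates changes of low genes.

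Gimap8, the GTPase with several GTP-binding domains, had normalized values of 88.1, 92.6, 168 and 179 in F261A/A284V replicates 1 to 4, 4.78, 3.17, 2.55 and 4.22 in RBPJ WT, and 77.4, 84.6, 75.3 and 76.4 in empty vector. RBPJ WT libraries were low without exception, at 2 to 7 reads each, and F261A/A284V libraries lay above all others. The log2 fold change was -4.11 for RBPJ WT and 0.67 for F261A/A284V against empty vector, the third lowest of all tested genes in the first comparison. Gimap4, described as a promoter of T cell death in rodents, had 103, 101, 122 and 107 in F261A/A284V, 3.41, 6.34, 1.27 and 2.81 in RBPJ WT, and 78, 59.3, 47.9 and 61.1 in empty vector. It too was highest in all F261A/A284V libraries, with log2 fold changes of -3.91 for RBPJ WT and 0.82 for F261A/A284V against empty vector. Gimap6, a partner of the autophagy machinery, had 117, 133, 209 and 237 in F261A/A284V, 6.83, 6.34, 10.2 and 7.03 in RBPJ WT, and 129.8, 111, 144 and 165 in empty vector. Its F261A/A284V and empty vector libraries overlapped.

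Gimap5, the survival factor, had 107, 95.1, 123 and 118 in F261A/A284V, 6.14, 12, 3.82 and 12.7 in RBPJ WT, and 127, 125, 114 and 112 in empty vector (log2 -3.76 for RBPJ WT against empty vector). Gimap1 had 283.9, 276, 477 and 525 in F261A/A284V, 34.8, 44.4, 26.8 and 25.3 in RBPJ WT, and 324, 341, 438 and 455 in empty vector. For both genes RBPJ WT libraries stood below all others, and the remaining groups overlapped. Gimap7, whose human form hydrolyses GTP as a dimer, had 259.9, 230.2, 423 and 410.1 in F261A/A284V, 24.6, 33.6, 35.7 and 26.7 in RBPJ WT, and 235, 218, 369.6 and 397 in empty vector (log2 -3.26 for RBPJ WT against empty vector). Gimap3, which was reported to bind BCL2 family proteins in mice, had 8.01, 14.6, 10.8 and 20.6 in F261A/A284V, 1.36, 1.27, 0 and 1.41 in RBPJ WT, and 20.3, 19.1, 27.4 and 19.9 in empty vector. Only 5 reads in all lay behind the RBPJ WT values of Gimap3, so its log2 fold change of -3.57 is imprecise. It was also the 1 gene of the 10 with a lower F261A/A284V level by more than 0.2 (log2 -0.71 against empty vector), although the libraries overlapped and F261A/A284V replicates 1 and 3 held 9 and 7 reads.

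Gimap9 kept the most transcript under RBPJ WT. Its values were 358, 326, 499 and 512 in F261A/A284V, 139.9, 139, 141 and 156 in RBPJ WT, and 316, 309, 435 and 457 in empty vector, a log2 fold change of -1.37 for RBPJ WT. The range of RBPJ WT libraries was narrow and below every other library. The Tmem176 genes moved by a similar amount from a low level. Tmem176a had 23.1, 20.9, 18.5 and 26.5 in F261A/A284V, 10.2, 6.34, 7.64 and 11.2 in RBPJ WT, and 30.2, 36.2, 20.5 and 18.3 in empty vector, with RBPJ WT again below the rest (log2 -1.45). Tmem176b had 12.5, 17.8, 20 and 23.5 in F261A/A284V, 6.83, 9.5, 6.37 and 1.41 in RBPJ WT, and 28.8, 26.6, 8.21 and 16.8 in empty vector. It was the 1 gene whose RBPJ WT and empty vector libraries overlapped, through empty vector replicate 3, which held 6 reads.

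The summed markers of 2 other cell types differed between RBPJ WT and the other rescue groups, each sum resting on few genes. They are given beside these values. The 11 myeloid and dendritic markers, 4 of which passed the filter, summed to 278 to 316 in F261A/A284V, 240.0 to 267 in RBPJ WT and 296 to 322 in empty vector. The 4 were Itgam, Lyz2, Cd68 and Fcgr3. Itgam, an integrin gene, lay at 21.6 to 42.5 in F261A/A284V, 8.43 to 20.9 in RBPJ WT and 24.6 to 68.8 in empty vector, with RBPJ WT below the rest as for the Gimap genes. Cd68 lay at 134 to 199 in F261A/A284V, 108 to 132 in RBPJ WT and 112 to 153 in empty vector, and Fcgr3 at 48.5 to 85.4 in F261A/A284V, 82.9 to 95.5 in RBPJ WT and 75.4 to 101 in empty vector. Lyz2 did not exceed 29.3 in any rescue library. Of the markers below the filter, Cd14 and Adgre1 did not exceed 0.89 and Csf1r did not exceed 4.59 in any rescue library. The 6 endothelial markers summed to 437 to 563 in F261A/A284V, 606 to 646 in RBPJ WT and 553 to 587 in empty vector, of which Pecam1 reached 563 in F261A/A284V, 645 in RBPJ WT and 587 in empty vector at the highest, and Emcn was at 0 in all. No endothelial marker but Pecam1 exceeded 1.37 in any rescue library. The part of either list in the results was not tested.

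**Figure D1:**
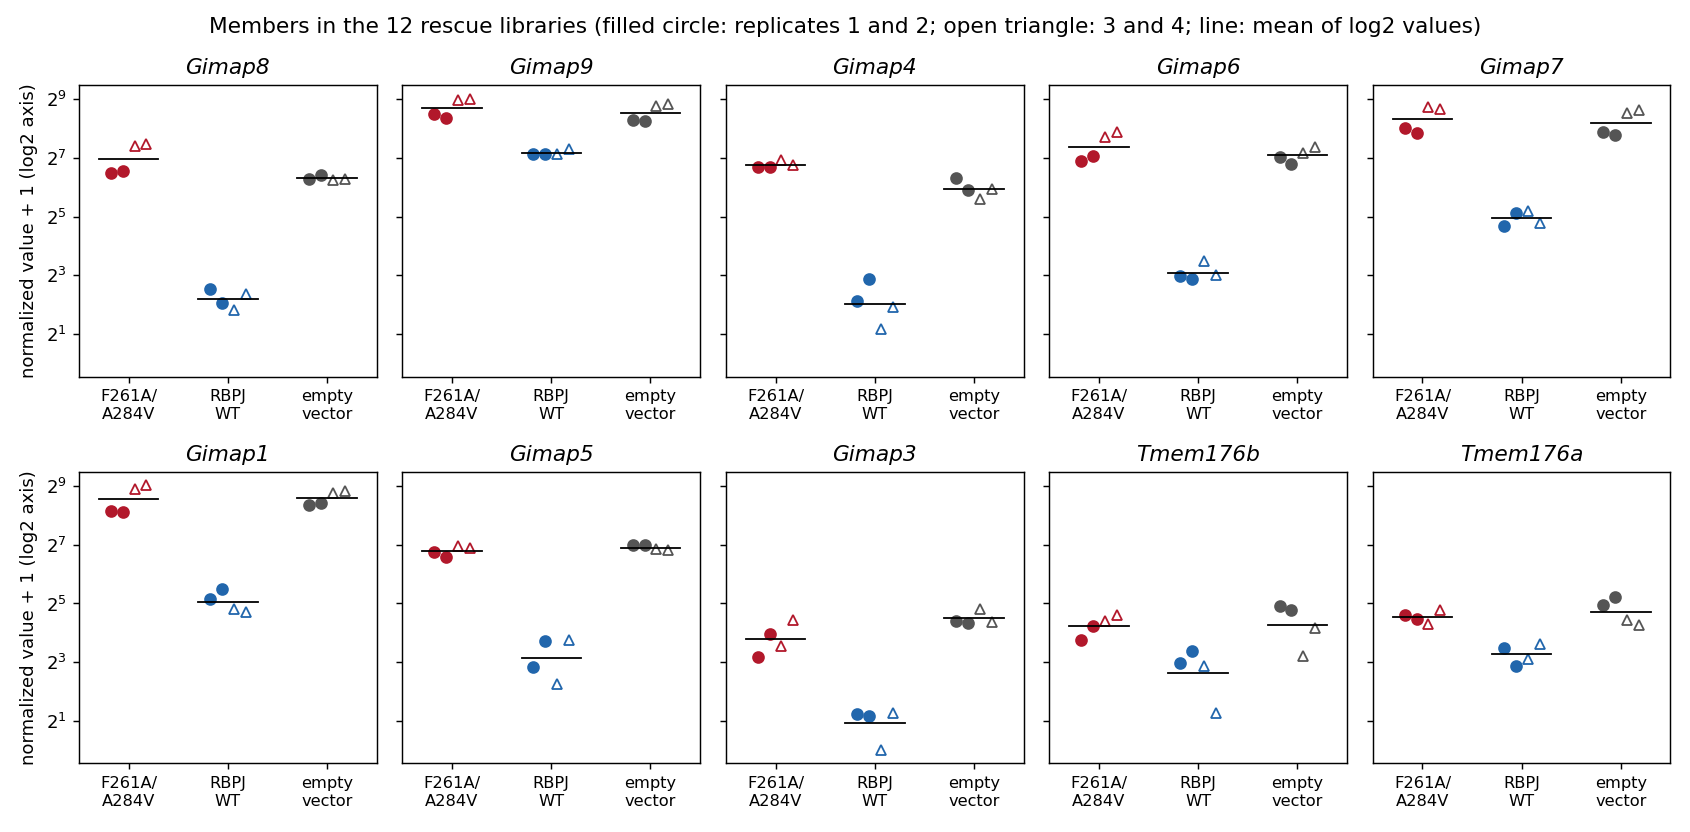
Normalized value + 1 (log2 axis) of the 10 genes, in chromosomal order, in F261A/A284V, RBPJ WT and empty vector libraries; filled circles are replicates 1 and 2, open triangles replicates 3 and 4, and lines are means of the log2 values over 4 libraries. RBPJ WT libraries lie lowest for all genes but Tmem176b, whose empty vector replicate 3 (8.21) reaches into the RBPJ WT range.

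In counts, 9 of the 10 genes had all RBPJ WT libraries below all empty vector libraries, a pattern shown by 1.87% of the genes tested. All 10 had every F261A/A284V library above every RBPJ WT library, where the background was 1.94%. The median log2 fold change of that comparison was 3.44, against 0.014 for all genes, with 4.78 for Gimap8 and 4.74 for Gimap4 at the upper end and 1.25 for Tmem176a at the lower. Gimap8 and Gimap4 were the 2 of 10 with all F261A/A284V libraries above all empty vector libraries, where the background was 0.881%. Since the same libraries chose the genes, nothing is read from these shares.

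RefSeq lists 5 other annotated genes between or over the members, and none of them had a row in the tables. The surroundings were read from the nearest tested genes. Of the 10 tested genes on each side, 1 rose in RBPJ WT against empty vector and none fell, where 1.52% of all genes were called (limma with replicates 1-2 or 3-4 as a term, adjusted p under 0.05). This was Osbpl3, which encodes an oxysterol-binding protein, at 631 ± 10.1 in RBPJ WT and 526 ± 30.7 in empty vector (SD, n = 3 each; log2 0.26, limma adjusted p = 0.022), with log2 0.20 within replicates 1 and 2 and 0.29 within replicates 3 and 4. It lost its call without RBPJ WT replicate 3 or 4 or without empty vector replicate 4. In F261A/A284V against RBPJ WT, Osbpl3 fell (log2 -0.32, limma adjusted p = 0.00562; -0.22 and -0.42 within the sides), where 1.96% of all genes were called. None of the 20 was called in F261A/A284V against empty vector by limma, edgeR or DESeq2, where limma called 0.0941% of all genes. At an unadjusted p under 0.05, limma and DESeq2 had 0 of the 20 and edgeR had 2. Of all 11691 genes, limma had 587, edgeR 831 and DESeq2 305 at that threshold.

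The nearest tested gene on the Gimap8 side was Zfp775, which encodes a zinc finger protein. It averaged 58.5 ± 13.8 in F261A/A284V, 46.1 ± 10.8 in RBPJ WT and 46.2 ± 13.9 in empty vector. On the Tmem176 side Malsu1, which encodes a factor of the mitochondrial ribosome, averaged 160.0 ± 22.4 in F261A/A284V, 165 ± 25.1 in RBPJ WT and 186 ± 29.3 in empty vector. Neither passed the test in any rescue comparison. With the sides as a term, log2 fold changes of F261A/A284V against empty vector were 0.20 for Zfp775 and -0.09 for Malsu1. Across the 20 flanking genes, log2 fold changes of RBPJ WT against empty vector in the limma fit lay between -0.32 and 0.32. The large negative values of the rescue were thus absent from the nearest tested genes on both sides, as the plot along the locus shows. Genes below the filter were passed over and the 10 genes were chosen on these libraries, so where the change ends is not shown.

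**Figure D2:**
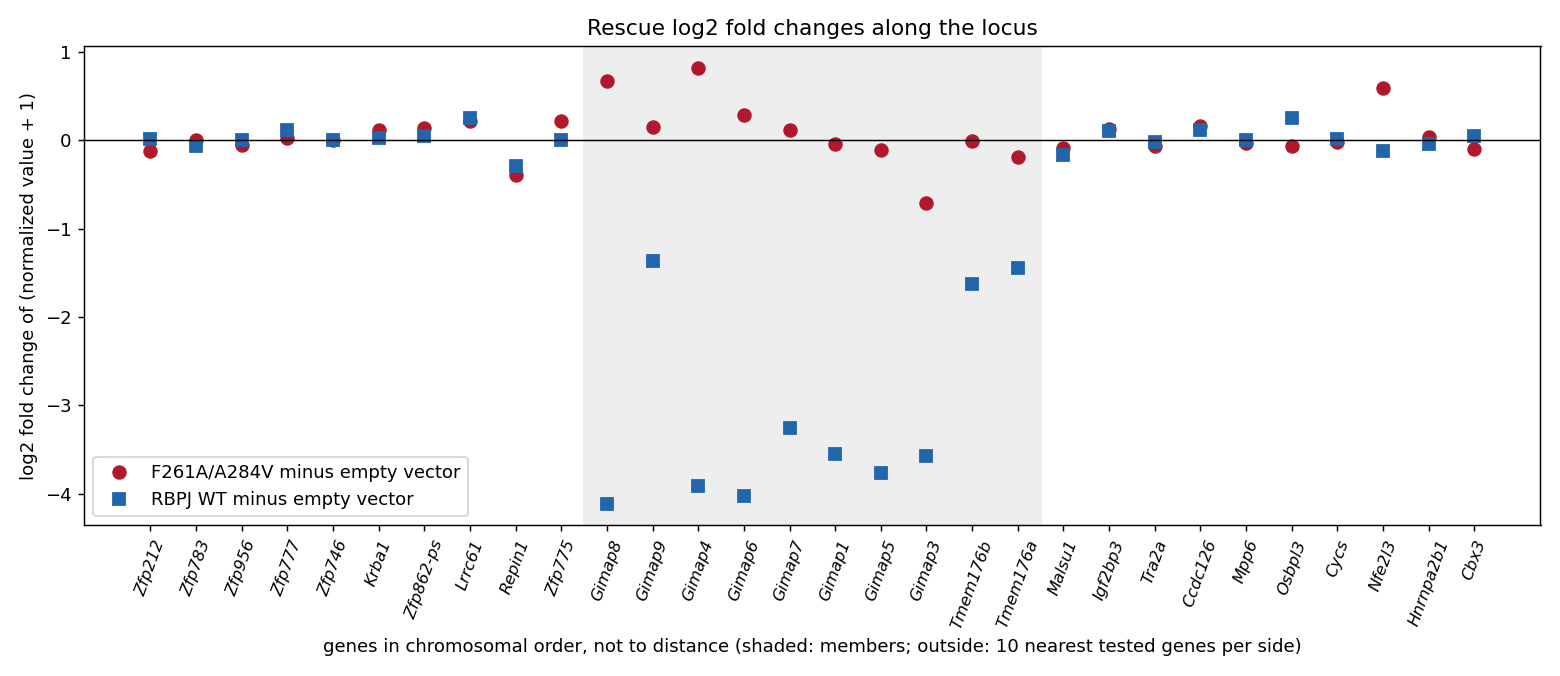
Log2 fold changes of (normalized value + 1) against empty vector, over 4 libraries per group, for the 10 genes (shaded) and the 10 nearest tested genes on each side, in chromosomal order and not to distance; red circles are F261A/A284V and blue squares RBPJ WT. Blue squares fall to between -1.37 and -4.11 for the 10 genes and lie between -0.29 and 0.25 for the flanking genes.

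The fall with RBPJ WT was present on both sides of the divide between replicates. RBPJ WT against empty vector gave log2 fold changes of -3.05 within replicates 1 and 2 and -4.05 within replicates 3 and 4 for Gimap1, -4.06 and -4.16 for Gimap8, and -1.16 and -1.58 for Gimap9. For F261A/A284V against empty vector, Gimap8 had 0.16 within replicates 1 and 2 and 1.18 within replicates 3 and 4, and Gimap4 had 0.58 and 1.06. Tmem176b changed sign, with -0.85 and 0.83, as did Tmem176a with -0.56 and 0.18. The empty vector levels of both Tmem176 genes were lower in replicates 3 and 4 than in replicates 1 and 2, by 1.16 on the log2 scale for Tmem176b and 0.74 for Tmem176a, whereas that of Gimap7 was higher by 0.76.

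Whether differences between the sides bore on the choice of the genes is not known, so the interaction of group and side (limma, 9 merged samples) is given as a description that supports nothing. None of the 10 genes was called for RBPJ WT, where 0.0% of all genes were called, and none for F261A/A284V, also against 0.0%; edgeR and DESeq2 called none either. At an unadjusted limma p under 0.05 there were 3 of 10 genes for RBPJ WT and 1 for F261A/A284V (edgeR 3 and 4, DESeq2 1 and 1). Of all 11691 genes, limma had 67 for RBPJ WT and 256 for F261A/A284V at that threshold (edgeR 168 and 512, DESeq2 9 and 53). The RBPJ WT effect was more negative in replicates 3 and 4 by 1.01 for Gimap1 (SE 0.221), by 0.67 for Gimap7 and by 0.42 for Gimap9, and the F261A/A284V effect was more positive by 1.03 for Gimap8 (SE 0.477). With the 12 libraries kept apart, Gimap1 was called for RBPJ WT, with and without the replicate block, and without the block it was the 1 gene that fell of 11691 tested, or 0.00855%. Of its 19 alternatives, 4 put it under the threshold, and 1 of them left out RBPJ WT replicate 3.

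In the knockdown, Gimap9, Gimap7 and Gimap1 were lower in the libraries labelled L3MBTL3 shRNA within each replicate number, but no gene of the 10 passed the test over the unpaired libraries. Of the 10 genes, 6 passed the filter on low values (Gimap1, Gimap5, Gimap7, Gimap8, Gimap9 and Tmem176a). Without the replicate number in the fit, none was called by limma, edgeR or DESeq2, where limma called 3.32% of all genes. The genes are taken to have been chosen for their rescue values, and the knockdown tests are independent of the choice only so far as this holds. At an unadjusted p under 0.05, limma and edgeR had 0 of 6 and DESeq2 had 1 of 6. Of all 11586 genes, limma had 2949, edgeR 2959 and DESeq2 2187 at that threshold. None of the 10, and so none of the 6 past the filter, had all libraries labelled shRNA below all scramble libraries, which 17.1% of tested genes had. None had them all above, which 18.1% had.

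Gimap9 had 218, 209 and 339.8 in the libraries labelled L3MBTL3 shRNA and 289, 297 and 456 in scramble replicates 1 to 3. Gimap7 had 53.8, 42.2 and 171 in libraries labelled shRNA and 77.7, 84.3 and 227 in scramble libraries. Gimap1 had 80.7, 64.8 and 209 in libraries labelled shRNA and 108, 88.2 and 267 in scramble libraries. For these 3 genes the library labelled shRNA lay below the scramble library of its number in 3 of 3 pairs, and replicate 3 was far above replicates 1 and 2 in both groups. The log2 fold changes were -0.44 for Gimap9 (SE 0.224, limma adjusted p = 0.249), -0.64 for Gimap7 (SE 0.56, adjusted p = 0.483) and -0.40 for Gimap1 (SE 0.503, adjusted p = 0.63).

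Deviations of same-numbered knockdown libraries correlated at 0.24 to 0.539, against -0.469 to 0.332 between other numbers, so the ranges overlapped. The overlap lay in replicates 1 and 2. Replicate 3 correlated at 0.539 with its own number and at -0.469 to -0.223 with the others. Its difference, shared by both groups, enters the error of the unpaired fit. The SE of Gimap1 was 0.503 there and 0.124 with the replicate block. With the replicate number as a block, limma called all 3 genes lower, at adjusted p = 0.00238 for Gimap9, 0.0133 for Gimap7 and 0.0372 for Gimap1. In that paired fit 8.71% of all genes fell. Without replicate 3 of both groups, Gimap9 (adjusted p = 0.00473) and Gimap7 (0.0188) fell, where 7.42% of all genes did, and with the block added Gimap1 (0.0302) fell as well, against 12.6%. Over the 14 alternatives the limma, edgeR or DESeq2 adjusted p ran between 1.39e-05 and 0.556 for Gimap9, between 0.000788 and 0.885 for Gimap7 and between 0.0302 and 0.955 for Gimap1. Replicate 3 was high in both groups, so leaving it out of either group alone shifts the fold change. Leaving out scramble replicate 3 alone turned Gimap1 to 0.08, Gimap5 to 0.08 and Gimap8 to 0.66 on the log2 scale. Without L3MBTL3 shRNA replicate 3 alone they were at -0.906, -1.025 and -0.938. Without replicate 3 of both groups they were at -0.425, -0.532 and -0.136. With all libraries, Gimap5 was at -0.42, Gimap8 at -0.14 and Tmem176a at 0.02.

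The spread within the knockdown groups was itself a feature of these genes. Gimap8 had 16.3, 13.7 and 82.6 in replicates 1 to 3 of the libraries labelled shRNA and 15.9, 17.2 and 92.2 in scramble libraries. Gimap6 had 3.84, 3.92 and 45.1 with the hairpin against L3MBTL3 and 6.55, 6.71 and 34.4 with scramble. Replicate 3 was thus the high library in both groups. It lay at least 1 above the mean of replicates 1 and 2 on the log2 scale in 9 of 10 genes in the libraries labelled shRNA, as did 0.526% of all tested genes, and in 8 of 10 in scramble libraries, as did 0.475%. Gimap9, at 0.67 and 0.64, was below 1 in both. The shares are of genes past the filter on low values, which Gimap3, Gimap4, Gimap6 and Tmem176b did not pass. Of the 6 members past it, all but Gimap9 lay at least 1 above in both groups. The replicate 3 libraries stood apart over all genes too, and what distinguishes them is not given in the labels. The myeloid and dendritic markers summed to 259 to 329 in libraries labelled shRNA and 380.0 to 414 in scramble libraries, mostly from Cd68, with Cd14 at 0 in all 6. Their part in the result was not tested.

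**Figure D3:**
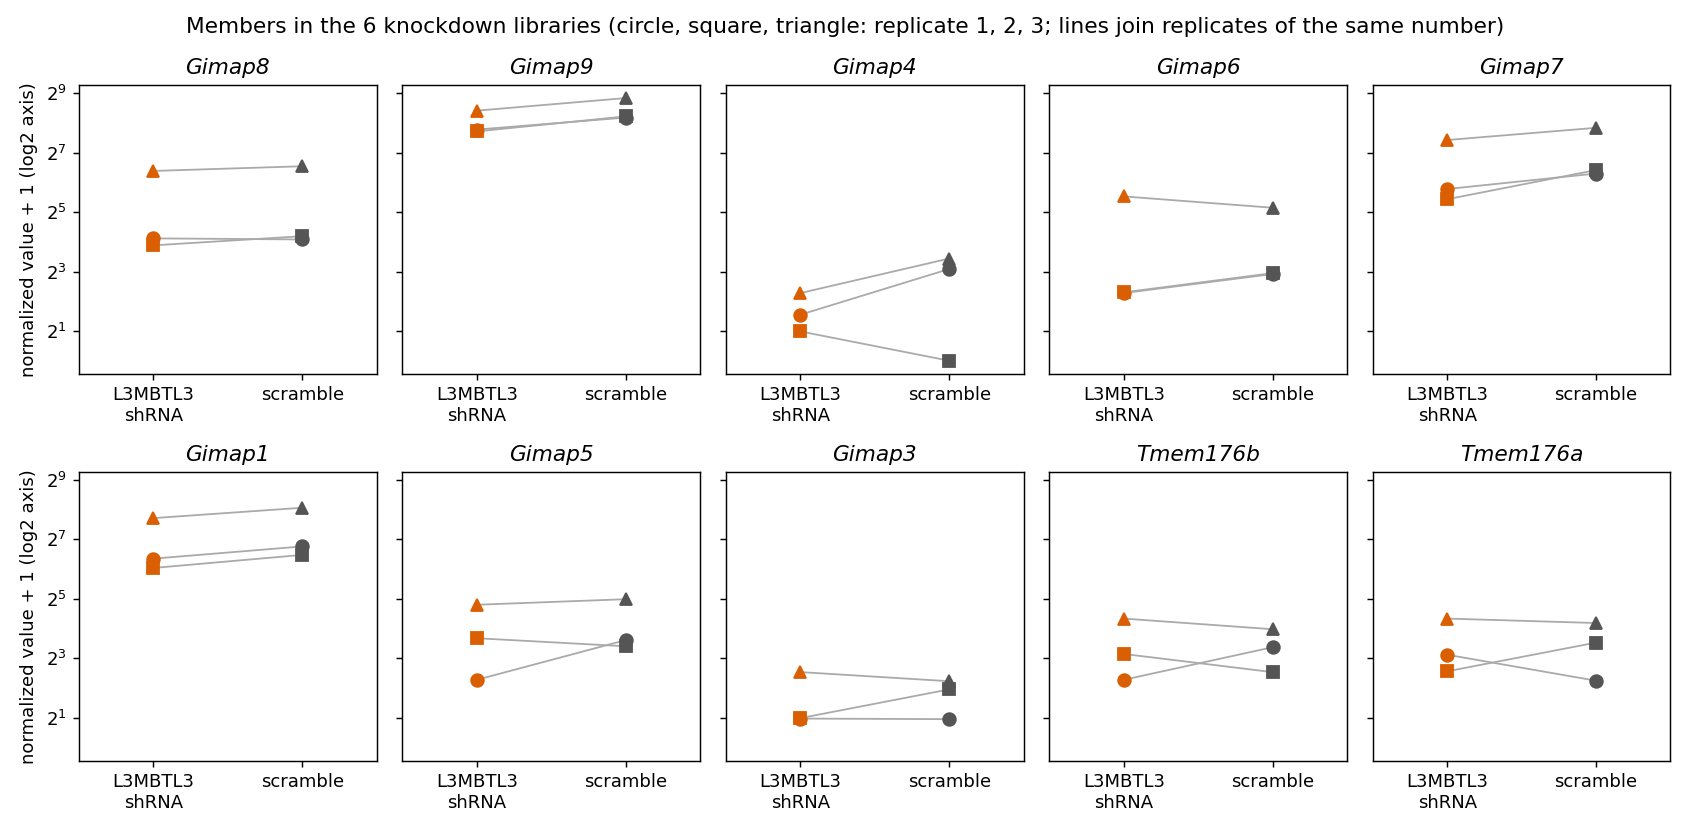
Normalized value + 1 (log2 axis) of the 10 genes in the libraries labelled L3MBTL3 shRNA and in scramble libraries, with a line joining the replicates of each number (circle 1, square 2, triangle 3). Replicate 3 is the highest library of its group in every panel, and each line of Gimap9, Gimap7 and Gimap1 slopes up toward scramble.

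Levels could be set side by side across experiments only as RPM, the recovered reads of a gene scaled to the library's recovered total, since the tables were normalized separately. The 8 Gimap genes summed to 251, 253, 371 and 386 RPM in F261A/A284V, 43.5, 49.15, 41 and 42.9 in RBPJ WT, and 261.5, 251, 306 and 315 in empty vector. They summed to 66.6, 60.8 and 152 in libraries labelled L3MBTL3 shRNA and 90.1, 88.5 and 187 in scramble libraries. Scramble cells, which kept their own Rbpj, thus lay between the RBPJ WT and the empty vector libraries in this sum. The Rbpj transcript itself was not intermediate in scramble. It lay at 282 to 360 RPM in scramble, 125 to 149 in RBPJ WT and 47.1 to 63.5 in empty vector libraries. The genes differed in where they lay. Gimap9 averaged 27.4 RPM in RBPJ WT, 71.9 in empty vector and 59.4 in scramble, near empty vector. Gimap4 averaged 0.67 in RBPJ WT, 11.8 in empty vector and 0.981 in scramble, and Gimap3 averaged 0.194 in RBPJ WT, 4.12 in empty vector and 0.427 in scramble, both near RBPJ WT. Cells, selection and vectors differ between the experiments as well, and these cannot be told apart from RBPJ here.

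**Figure D4:**
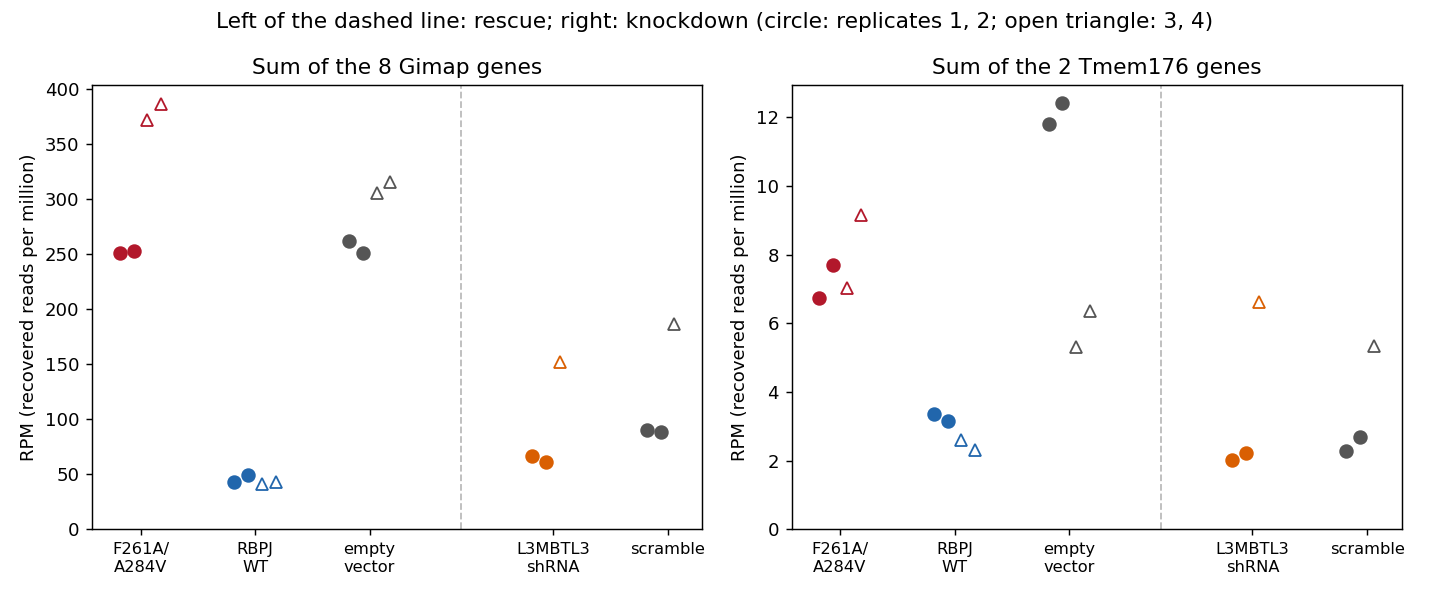
RPM (recovered reads, scaled to the library total) summed over the 8 Gimap genes (left panel) and the 2 Tmem176 genes (right panel) in each library of the 5 groups, with the rescue left and the knockdown right of the dashed line; circles are replicates 1 and 2 and open triangles replicates 3 and 4. RBPJ WT libraries lie at 41 to 49.15 for the Gimap sum, below every library of the other groups.

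Per kilobase of exon (lengths from GENCODE M21, GRCm38), Gimap9 had the highest level in all 5 groups, with a mean normalized value of 258 per kilobase in F261A/A284V, 87.8 in RBPJ WT and 231 in empty vector. Gimap7 and Gimap1 followed in each group, and their empty vector libraries overlapped. The order below them differed between groups. In empty vector, Gimap6, Gimap4 and Gimap5 averaged 39.3, 33.5 and 28.7 per kilobase. Gimap4 overlapped both neighbours, every Gimap6 library lay above every Gimap5 library, and Gimap8 was below all 3 of them at 21.2. Tmem176b, Gimap3 and Tmem176a were lowest there, at 8.49, 8.41 and 6.9, and overlapped as well. In RBPJ WT, the Tmem176 genes followed next at 2.54 and 2.33 per kilobase, just above Gimap6 at 2.17.

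Over the 12 rescue libraries the Gimap genes varied together, although the sizes of their changes differed. Pearson's r of each with the mean of the 8, which includes the gene itself, lay between 0.956 (Gimap3) and 0.994 (Gimap1), and was 0.877 for Tmem176a and 0.768 for Tmem176b. These libraries chose the genes and share groups and the replicate divide, so high values follow in part from the choice and r is a description. It does not reflect size. RBPJ WT against empty vector was at log2 -4.11 for Gimap8 and -1.37 for Gimap9, and F261A/A284V against empty vector at 0.82 for Gimap4 and -0.71 for Gimap3. The 5 other genes most like that mean were Gzmb (r 0.981), which encodes granzyme B, Lgmn (0.981), the protease legumain, Aig1 (0.968), a lipid hydrolase gene, Gngt2 (0.965), a G protein subunit gene, and Art2a-ps (0.957), an ADP-ribosyltransferase gene annotated as a pseudogene. After centring within replicates 1-2 and 3-4, r lay between 0.965 and 0.994 for them. Gzmb averaged 295 ± 150.0 in F261A/A284V, 39 ± 4.09 in RBPJ WT and 298 ± 81.1 in empty vector, over samples that weigh the sides differently. Within replicates 1-2 and within 3-4, its log2 fold changes were -2.31 and -3.15 for RBPJ WT against empty vector. They were 2.33 and 3.58 for F261A/A284V against RBPJ WT. Lgmn averaged 381 ± 22.6 in F261A/A284V, 81.5 ± 20.4 in RBPJ WT and 392 ± 17.9 in empty vector.

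In the knockdown, Gzmb had 122.1, 94.2 and 148.8 in libraries labelled L3MBTL3 shRNA and 187.2, 174.4 and 190.5 in scramble libraries, and the library labelled shRNA lay below the scramble library of its number in each pair, as for Gimap9, Gimap7 and Gimap1. With the replicate block it fell (log2 -0.62, limma adjusted p = 0.00544), which it did not in the unpaired fit. Art2a-ps had 2.9, 1 and 50.9 in libraries labelled L3MBTL3 shRNA and 12.2, 7.7 and 131.5 in scramble libraries, so that replicate 3 was high in both groups, as for the Gimap genes. Lgmn had 34.6, 32.4 and 12.5 in libraries labelled shRNA and 2.8, 2.9 and 0 in scramble libraries, and replicate 3 was its lowest library in both groups. Gngt2 lay between 20.9 and 26 in all 6 libraries, and Aig1 between 3.7 and 14.4.

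Other genes of related function were read from lists, with limma p adjusted over all genes. Of 12 tested Notch targets, 5 fell in RBPJ WT against empty vector and none rose (Gzmb, Hes1, Hey1, Lgmn and Notch1; list median -0.50, all genes -0.01), and 5 rose in F261A/A284V against RBPJ WT (Gzmb, Hes1, Hey1, Lgmn and Notch1; median 0.37), a comparison that shares the RBPJ WT libraries. Hes1, the classical Notch target, averaged 328 ± 93 in F261A/A284V, 193 ± 40.3 in RBPJ WT and 289 ± 46.2 in empty vector (limma adjusted p = 5.48e-05 for RBPJ WT against empty vector). The receptor gene Notch1 averaged 148 ± 51.9 in F261A/A284V, 46.5 ± 21.9 in RBPJ WT and 137 ± 35 in empty vector (limma adjusted p = 1.23e-06 for RBPJ WT against empty vector). Within replicates 1 and 2 and within replicates 3 and 4, that comparison gave -0.69 and -0.55 for Hes1 and -1.32 and -1.76 for Notch1 on the log2 scale. Gzmb and Lgmn entered the list with their behaviour in these data known. Hey1 lost its call in that comparison without RBPJ WT replicate 3 or empty vector replicate 3. In F261A/A284V against empty vector limma called 0 of the 12, edgeR 1 and DESeq2 0. An unadjusted limma p under 0.05 was held by 1 of the 12 and by 587 of all 11691 genes. With the replicate block over 12 libraries, however, Hes1 rose (log2 0.34, limma adjusted p = 0.0135), where 0.65% of all genes were called.

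Among 14 tested genes of other immune GTPase families, 1 fell in RBPJ WT against empty vector (median -0.24) and 4 rose in F261A/A284V against RBPJ WT (median 0.32). The first was Gbp7, a guanylate-binding protein gene, at 611 ± 113 in RBPJ WT and 756 ± 98.2 in empty vector (log2 -0.32, limma adjusted p = 0.00272). The 4 were Gbp4, Gbp6, Gbp7 and Gbp9, the largest being Gbp9 with 173 ± 23.3 in F261A/A284V and 93.9 ± 42.9 in RBPJ WT (log2 0.75) and Gbp4 with 345 ± 24.3 in F261A/A284V and 227 ± 50.5 in RBPJ WT (log2 0.56). The log2 fold changes were 0.35 within replicates 1 and 2 and 1.16 within replicates 3 and 4 for Gbp9, 0.27 and 0.88 for Gbp4, and -0.22 and -0.36 for Gbp7 in RBPJ WT against empty vector. None of the 4 rises and not the fall of Gbp7 passed the test within replicates 1 and 2. In F261A/A284V against RBPJ WT, Gbp9 lost its call without F261A/A284V replicate 2 and Gbp7 without RBPJ WT replicate 3. With the replicate block over 12 libraries, 7 of the 14 rose in that comparison, where 4.74% of all genes were called, and Gbp5 fell beside Gbp7 in RBPJ WT against empty vector, where 2.23% were.

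Of 13 tested BCL2 family genes, Bbc3, which encodes the death factor PUMA, rose in RBPJ WT against empty vector (370.0 ± 51.1 in RBPJ WT and 295 ± 31.3 in empty vector, log2 0.32, limma adjusted p = 0.0194), and Bcl2l11, which encodes BIM, rose in F261A/A284V against empty vector (985 ± 173 in F261A/A284V and 866 ± 118 in empty vector, log2 0.30, limma adjusted p = 0.0458). Within replicates 1 and 2 and within 3 and 4, Bbc3 had 0.22 and 0.37 and Bcl2l11 0.27 and 0.34, and neither passed within the first pair. Bbc3 lost its call without RBPJ WT replicate 3 or empty vector replicate 4. Bcl2l11 lost it without RBPJ WT replicate 1, empty vector replicate 2, 3 or 4, or F261A/A284V replicate 2 or 4. Of 4 tested genes of the RORgt program, the factor gene Maf rose in RBPJ WT (log2 0.44, limma adjusted p = 0.0246) and fell in F261A/A284V against RBPJ WT (log2 -0.68), opposite in sign to the Tmem176 genes. The list did not move as Maf did. In RBPJ WT against empty vector all 4 had an unadjusted limma p under 0.05, with a list median of -0.03. Of all 11691 genes, 1281 had such a p. With the replicate block Irf4 rose in F261A/A284V against RBPJ WT (log2 0.66, limma adjusted p = 0.0111), in the direction of the Tmem176 genes. The rise of Maf was 0.30 within replicates 1 and 2 and 0.51 within replicates 3 and 4. It lost its call without RBPJ WT replicate 3 or 4, empty vector replicate 4 or F261A/A284V replicate 2. Of the MS4A relatives 1 passed the filter, Ms4a6b, and rose in RBPJ WT (51.7 ± 12.8 in RBPJ WT against 29.6 ± 12.6 in empty vector, log2 0.83, limma adjusted p = 0.0261). It had 0.54 and 0.97 within these pairs, past the threshold in neither, and lost its call without RBPJ WT replicate 2 or 3, empty vector replicate 3 or 4, or F261A/A284V replicate 1 or 2.

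In the knockdown, 5 list genes past a limma adjusted p of 0.05 and 1 flanking gene were called. Btg2 and Foxp1, factors of lymphocyte quiescence, were higher in libraries labelled L3MBTL3 shRNA (log2 0.47 and 0.24), as were Lgmn (log2 3.36), Gbp6 (502 ± 52.7 in libraries labelled shRNA against 295 ± 72.9 in scramble, log2 0.79) and the flanking gene Atp6v0e2, a proton pump subunit gene (80.2 ± 9.86 in libraries labelled shRNA against 42.7 ± 4.36 in scramble, log2 0.89, limma adjusted p = 0.0413). Ccr7, a homing receptor, fell (6.45 ± 0.604 in libraries labelled shRNA against 35.5 ± 14.4 in scramble, log2 -2.22). None of these calls held without L3MBTL3 shRNA replicate 1, 2 or 3 or without scramble replicate 2. This loss was not particular to them. Without shRNA replicate 1 or 2 or scramble replicate 2, 0 of all 11586 genes were called, and without shRNA replicate 3, 2 rose and 3 fell. The calls of Btg2 and Foxp1 were also lost without scramble replicate 1, where 235 genes rose and 97 fell. No BCL2 family gene (4 of 13 at an unadjusted limma p under 0.05) and no RORgt program gene (2 of 6) was called in the unpaired fit. Of all 11586 genes, 2949 had such a p.

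Paired by replicate number, more list genes were called in the knockdown, where 13.5% of all genes rose and 8.71% fell. Of 6 tested RORgt program genes 4 rose and none fell, among them the chemokine receptor gene Ccr6 (means of 188 in libraries labelled L3MBTL3 shRNA and 61.3 in scramble, log2 2.12, limma adjusted p = 0.00114) and the interleukin receptor gene Il17re (41.6 in libraries labelled shRNA and 17 in scramble, log2 1.32). Of 13 BCL2 family genes, Bcl2l1, which encodes the survival factor BCL-XL, rose (log2 0.35), and Bbc3 (log2 -0.43) and the survival gene Bcl2 (log2 -0.41) were among those that fell. Of 11 genes of other immune GTPase families 6 rose and none fell, the largest being Irgm1 (means of 159 in libraries labelled shRNA and 80.7 in scramble, log2 1.03). Of 10 Notch targets 5 rose, Hes1 (log2 0.55) and Notch1 (log2 1.02) among them, and Gzmb fell. Of 11 quiescence and homing genes 4 rose and 4 fell. These genes were named after their values were seen.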

How the data were processed

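Ribosome-depleted total RNA of 18 libraries was sequenced with a stranded kit, per the labels' protocols. The submitters' processing notes name TopHat2 2.1.1 and DESeq2 1.24.0, with the build mm9; of the read counter, annotation and strand setting nothing is given in the sources used here. The authors deposited 1 table per experiment, whose values are a signal: gene counts divided by 1 size factor per library. Whole reads were recovered for 100% of values within 0.1 read. Intervals from such reads cover counting error only.

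Genes with a value of at least 10 in 3 (knockdown, 11586 genes) or 4 libraries (rescue, 11691) were tested on log2(value + 1) with limma 3.58.1 in R 4.3.3, 2-sided, with Benjamini-Hochberg adjustment over all of them and a threshold of 0.05. edgeR 4.0.16, DESeq2 1.42.0, quantile scaling, a pseudocount of 10, no filter, left-out libraries and the replicate block were alternatives. The fits were tested on simulated data.

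The tables were normalized separately, so tests stay within a table. Empty vector 1 and 2, RBPJ WT 1 and 2, and F261A/A284V 3 and 4 agreed within sampling noise over genes (chi-square divided by its degrees of freedom 0.859, 0.721 and 0.823) and were averaged and counted as 1 sample each. Replicate numbers come from the labels. Deviations from group means correlated at 0.24 to 0.539 between same-numbered knockdown libraries and at -0.469 to 0.332 between those of other numbers. These ranges overlap, so a pairing of replicates 1 and 2 is not shown, and the paired fit is an alternative. Replicate 3 correlated at 0.539 with its own number and at -0.469 to -0.223 with the others. In the rescue, deviations correlated at 0.55 to 0.815 for the same number. On the same side of the divide between replicates 1-2 and 3-4, other numbers correlated at 0.559 to 0.832, and across it at -0.761 to -0.491.

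The members and lists were chosen with earlier results of these data known. All 10 members are named; of the flanking genes, the nearest on each side and those called; of each list, up to 2 called genes per comparison with the largest change and a group mean of at least 50, other called genes being named after their values were seen; and the 5 genes most like the Gimap mean. The rescue result of 1 list and some list genes are not reported here.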

Additional observations from a re-analysis of the deposited data

How the results depend on the processing

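At the depths here a member with under 10 reads in a library is imprecise, which touches Gimap3, Gimap4, Gimap5, Gimap6, Gimap8, Tmem176a and Tmem176b in RBPJ WT, Gimap3 in F261A/A284V, Tmem176b in empty vector, and Gimap3, Gimap4, Gimap5, Gimap6, Tmem176a and Tmem176b in the knockdown. With the replicate block (paired fit), 3 knockdown members were called in place of 0, and 4 flanking and 28 list genes; without replicate 3 of both groups (chosen after seeing the data) 2, 2 and 22, and with the block added 3, 5 and 27. Leaving out single knockdown libraries gave 0 to 2 flanking and 0 to 9 list genes. Without L3MBTL3 shRNA replicate 1 or 2 or scramble replicate 2, 0 of all tested genes were called. Over the single libraries left out, log2 fold changes ran from -0.906 to 0.082 for Gimap1, -1.025 to 0.237 for Gimap5 and -0.938 to 0.659 for Gimap8. They ran from -0.518 to 0.452 for Tmem176a, which was -0.202 after quantile scaling and -0.046 without replicate 3 of both groups. Quantile scaling called 2 flanking and 8 list genes there, and DESeq2 10 list genes. For RBPJ WT, 1 member was called in the interaction with 12 libraries kept apart, with the replicate block added and without a filter, and 0 to 1 when single libraries were left out. Over all genes, 1 rose and 1 fell of 11691 with the 12 libraries kept apart, and 677 rose and 833 fell of 19144 without a filter. The median member fold change was -2.551 (RBPJ WT against empty vector) and 2.883 (F261A/A284V against RBPJ WT) with a pseudocount of 10, and -3.104 and 2.924 within replicates 1 and 2. For flanking genes in RBPJ WT against empty vector, 0 were called by DESeq2, without a filter, within replicates 1 and 2 and in 12 libraries with group as the only term, 0 to 1 without single libraries, and 0 in F261A/A284V against RBPJ WT with group only. List genes called with group only were 2 (RBPJ WT against empty vector), 0 (F261A/A284V against empty vector) and 2 (F261A/A284V against RBPJ WT), and without a filter 6, 0 and 6. F261A/A284V against empty vector had 2 with the replicate block and with edgeR, 0 with quantile scaling, 0 within replicates 1 and 2, 3 within replicates 3 and 4, and 0 to 1 without single libraries, and F261A/A284V against RBPJ WT had 17 with the block and 17 within replicates 3 and 4. The causes were not tested. The block changed no other member call.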
